A study of Mus musculus with 33 samples.

Results

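The 44 genes described here run the cell cycle, and were followed in Treg, the regulatory T cells, sorted from mouse colons. They were chosen by function, with earlier results of these data known, and are 44 of the 53465 genes in the count table. Of these, 17 copy DNA or supply its nucleotides, 6 act in G1 or at the start of S phase, and 21 act in mitosis or in preparing it. All 44 passed the filter on low counts.

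Treg are CD4 T cells that carry the transcription factor Foxp3 and restrain other immune cells. The study sorted them by 2 cytokine receptors: TSLPR (gene Crlf2), which binds TSLP, and ST2 (gene Il1rl1), which binds IL-33. There were 4 cancer mice (mice 5 to 8), given azoxymethane, a carcinogen, at 10 mg/kg and then 3 cycles of dextran sulfate sodium, which injures the gut lining, for 7 days each, with colons taken 2 weeks after the last cycle. The 4 naive mice (mice 1 to 4) had no such treatment in their labels. All 8 mice carried the same Foxp3-yfp reporter on the B6 background, and the labels put mice at 7 to 12 weeks of age. From each colon, 200 Foxp3+ cells were sorted per library from each of 4 gates. Cells with TSLPR were split into TSLPR+ST2+ and TSLPR+ST2-, and those without it into TSLPR-ST2+ and TSLPR-ST2-, which gives 8 groups of 4 libraries. No group received azoxymethane or dextran sulfate sodium alone, so tumours, recent colitis and the chemicals cannot be told apart in the cancer mice.

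Before DNA is copied, Cdc6 and Cdt1 load the MCM helicase, made of Mcm2 to Mcm7, onto origins in G1, and Cdc45 and the GINS complex then switch it on. Genes of replication are transcribed from late G1 by E2F factors, whereas genes of mitosis are held silent in resting cells and are transcribed later, through CCAAT boxes bound by NF-Y and a nearby cell cycle homology region (CHR) bound by MuvB complexes. In tissues, Treg divide in response to antigen and IL-2, and IL-33 is known to expand the ST2+ Treg of the gut.

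The letters of these sites were counted in the promoters of each role group. RefSeq promoter windows (GRCm38.p6, 250 bases before the start and 50 after it) were found for 35 of the 44 members. A member was counted if any of its windows matched, whereas the share of all windows counts single windows, so these measures are unlike. The E2F letters, searched on both strands as TTTCCCGC, TTTGGCGC, TTTCGCGC or TTTGCCGC, stood in 7 of 14 replication promoters, 1 of 4 G1 promoters and 1 of 17 mitosis promoters, against 2.26% of all 32817 windows. The CHR letters TTTGAA stood in 2 of 14 replication promoters, 1 of 4 G1 promoters and 12 of 17 mitosis promoters, against 17.9% of all windows. CCAAT stood in 10 of 14, 2 of 4 and 16 of 17 of the same promoters, against 37.4% of all windows. A match is a description of the letters and not a shown site. The stretches below lie upstream of the start and outside annotated exons, are written 5′ to 3′ on the gene's strand, and carry the matched letters of either strand in capitals, so that the reverse complement of an E2F site, TTTGAA or CCAAT is also capital. Mcm6 (chr1:128359706-128359830, minus strand) and Mcm5 (chr8:75109341-75109506, plus strand) are shown as replication genes, and in both the E2F letters of the opposite strands overlap. Cdk1 (chr10:69352941-69353135, minus strand), Ccnb2 (chr9:70421556-70421736, minus strand) and Top2a (chr11:99024192-99024431, minus strand) are shown as mitosis genes with TTTGAA. Cdc25b (chr2:131186905-131186939, plus strand) is shown as a mitosis gene whose window holds no TTTGAA.
Mcm6: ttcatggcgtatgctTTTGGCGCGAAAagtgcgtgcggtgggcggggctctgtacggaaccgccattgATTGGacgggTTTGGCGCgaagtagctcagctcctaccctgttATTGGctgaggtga
Mcm5: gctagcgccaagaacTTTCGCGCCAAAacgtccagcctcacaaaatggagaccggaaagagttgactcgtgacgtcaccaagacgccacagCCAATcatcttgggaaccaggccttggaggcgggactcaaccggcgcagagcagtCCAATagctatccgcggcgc
Cdk1: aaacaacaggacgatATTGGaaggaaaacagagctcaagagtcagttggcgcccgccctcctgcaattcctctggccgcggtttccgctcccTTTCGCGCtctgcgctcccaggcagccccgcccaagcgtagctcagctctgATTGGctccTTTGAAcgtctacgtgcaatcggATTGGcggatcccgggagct
Ccnb2: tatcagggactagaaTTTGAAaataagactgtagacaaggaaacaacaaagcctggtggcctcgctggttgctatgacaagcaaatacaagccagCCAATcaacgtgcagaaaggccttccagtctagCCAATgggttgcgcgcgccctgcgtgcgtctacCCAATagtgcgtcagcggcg
Top2a: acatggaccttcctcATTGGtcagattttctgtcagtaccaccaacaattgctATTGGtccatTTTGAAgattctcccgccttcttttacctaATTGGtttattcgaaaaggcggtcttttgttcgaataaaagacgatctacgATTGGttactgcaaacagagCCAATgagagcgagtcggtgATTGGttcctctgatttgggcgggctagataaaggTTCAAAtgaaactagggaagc
Cdc25b: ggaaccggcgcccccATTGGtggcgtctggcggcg
The Mcm6 and Mcm5 stretches hold E2F letters and CCAAT but no TTTGAA. The Ccnb2 and Top2a stretches hold several CCAAT boxes and TTTGAA, Cdk1 holds letters of all 3 kinds, and the Cdc25b stretch holds a single CCAAT and neither of the other 2. The letters were not tested against the calls below. Of mitosis members with TTTGAA, Mki67, Top2a, Cdk1, Ccnb2, Hmgb2, Ube2c, Bub1b, Plk1 and Cenpf passed with TSLPR. Cdc20, Aurka and Kif11, also with TTTGAA, did not pass. Of mitosis members with CCAAT only, Bub1 passed, and Ccnb1, Cdc25b and Cenpe did not. The replication gene Rrm2, which passed, holds CCAAT only. Plk1, which passed, holds a single CCAAT upstream of its start and TTTGAA after it.

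Library totals ran from 4038718 to 8839946 counts, and levels are CPM (counts scaled to a fixed library size) on TMM-scaled totals unless stated. The sort genes followed the gates: Crlf2 averaged 40.3 ± 8.86 CPM in TSLPR+ libraries and 15.8 ± 5.63 CPM in TSLPR- libraries (SD, n = 16 each), and was higher in TSLPR+ in 8 of 8 mice. In the ST2+ gates of mouse 5 the order was the other way, with 25.2 CPM in TSLPR+ST2+ and 30.5 CPM in TSLPR-ST2+ cells. Treg and T cell markers were present in every library (10 of 10 detected, summed level 6156 to 9507 CPM). The TSLPR+ST2+ library of cancer mouse 7 stood apart with 15620 CPM of summed epithelial markers, against at most 545.4 CPM in any other Treg library. Counts of the TSLPR and ST2 comparisons are given without these libraries below; the sums per mouse were not fitted without them, only without the whole mouse. GEO labels place each gate with its mouse, so the mouse is the replicate.

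Levels per kilobase of exon, as medians over the 32 Treg libraries, differed widely within the list. Ccnd2, the G1 cyclin D2, was highest at 118 CPM per kilobase, followed by Mcm6 at 57.4 and Pcna, the sliding clamp of DNA polymerase, at 53.1. Replication genes were detected in all 32 libraries for 12 of 17 members, and mitosis genes for 4 of 21 (Hmgb2, Cdc25b, Stmn1 and Top2a). Hmgb2, a chromatin protein, reached 40.3 CPM per kilobase and Cdc25b, a phosphatase that activates Cdk1, 23.6, whereas the kinetochore kinase Bub1 had a median of 0 and was at 0 in 18 of 32 libraries. Because Hmgb2 and Cdc25b made up 24.5 to 81.8% of the summed mitosis level in a library, sums are also given without that pair, a choice made after their values were seen. In bulk libraries, fewer cycling cells and less RNA per cycling cell cannot be told apart.

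**Figure D1:**
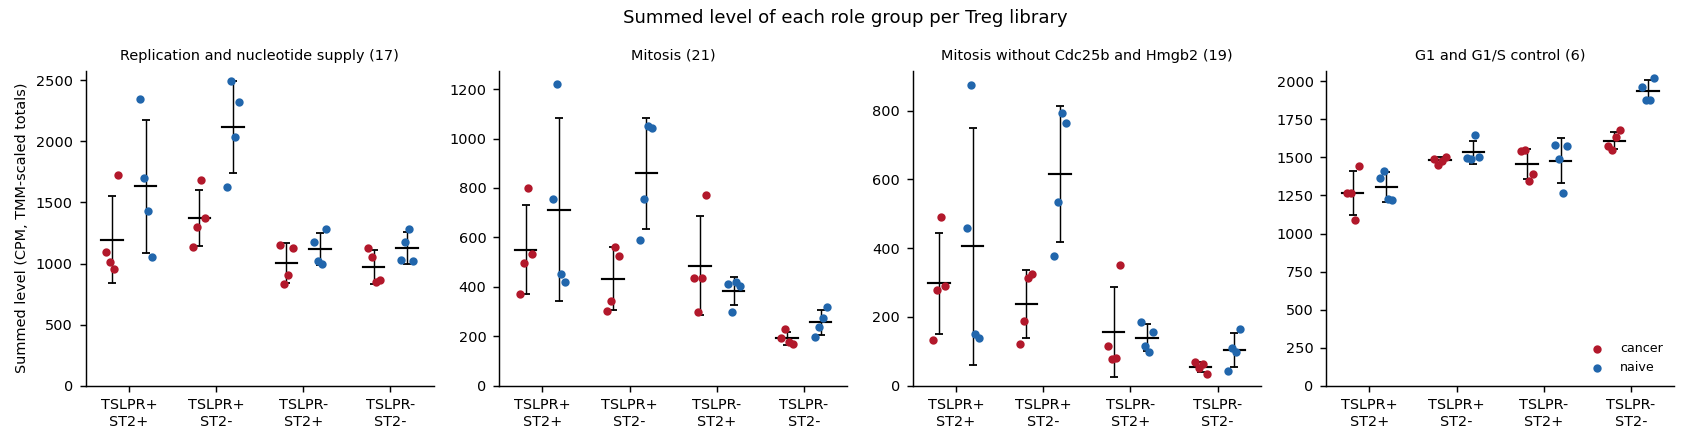
Summed level of the 17 replication, 21 mitosis, 19 mitosis without Cdc25b and Hmgb2, and 6 G1 genes in each of the 32 Treg libraries (CPM, y axis) by gate (x axis), with cancer mice in red left of naive mice in blue; points are mice, lines are means and bars are SD (n = 4). Replication is highest in naive TSLPR+ST2- cells (mean 2117 CPM) and the G1 sum is highest in naive TSLPR-ST2- cells (mean 1936 CPM).

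More members passed between TSLPR+ and TSLPR- Treg than in any other comparison made here. In TSLPR+ cells, 24 members were higher and 1, Ccnd2, was lower, while 19 did not pass (edgeR, adjusted p under 0.05 over 14861 genes). Of all genes tested 13.4% passed, 7.97% higher and 5.46% lower. The median log2 change of the 44 members was 1.37, against 0.007 for all genes tested. The replication group had 10 of 17 members higher and a median of 0.67, and the mitosis group had 13 of 21 higher and a median of 1.92. With the groups that were wholly at 0 set to a floor of 3 counts over the group, the medians of log2 group means were 0.67 for replication and 1.93 for mitosis.

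Summed replication level averaged 1579 ± 502 CPM in TSLPR+ and 1056 ± 144 CPM in TSLPR- libraries (SD, n = 16 each), higher in TSLPR+ in 7 of 8 mice. Summed mitosis level averaged 639 ± 274 CPM in TSLPR+ and 329 ± 152 CPM in TSLPR- libraries, higher in TSLPR+ in 8 of 8 mice. Without Cdc25b and Hmgb2 the mitosis sums were 389 ± 245 CPM in TSLPR+ and 113 ± 76.7 CPM in TSLPR- libraries, again higher in TSLPR+ in 8 of 8 mice. The groups overlap, since TSLPR+ libraries began at 122 CPM and TSLPR- libraries reached 351 CPM. The spread among TSLPR+ libraries was wider than among TSLPR- libraries in both role groups.

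Among the helicase genes, Mcm6 (chromosome 1, 128331590 to 128359664) had a lowest, median and highest level of 212, 355 and 528 CPM in TSLPR+ and of 138, 241 and 289 CPM in TSLPR- libraries. In 11 of 16 TSLPR+ libraries it lay above every TSLPR- library, and the fitted change was 1.498-fold (log2 0.58 ± 0.10 SE, edgeR adjusted p = 8.989e-05). Mcm2 (chromosome 6, 88883474 to 88898780) gave 47.1, 134 and 259 CPM in TSLPR+ and 54.9, 91.7 and 159 CPM in TSLPR- libraries (1.53-fold higher, log2 0.61 ± 0.14 SE, edgeR adjusted p = 0.003757). The TSLPR+ range of Mcm2 spans the TSLPR- range on both sides, and 7 of 8 mice were higher in TSLPR+. Mcm5 and Mcm3 also rose, by 1.56-fold and 1.46-fold, whereas Mcm4 and Mcm7 did not pass, at 181 ± 60.5 and 132 ± 34.8 CPM in TSLPR+ against 147 ± 24.6 and 110 ± 22.7 CPM in TSLPR- libraries. The 6 subunits of the ring therefore had positive fitted changes of unequal size.

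Genes of nucleotide supply rose as well. Tyms, thymidylate synthase, had 18.7, 36.2 and 83.7 CPM (lowest, median, highest) in TSLPR+ and 10.8, 22.9 and 40.1 CPM in TSLPR- libraries, and was higher in TSLPR+ in 8 of 8 mice (2.00-fold, edgeR adjusted p = 0.002767). Tk1, the thymidine kinase of S phase, had 4.94, 23.6 and 52.3 CPM in TSLPR+ and 2.73, 10.2 and 20.1 CPM in TSLPR- libraries (2.39-fold, adjusted p = 0.004463). Rrm1, the large subunit of ribonucleotide reductase, had 29.8, 95.5 and 209 CPM in TSLPR+ and 44.3, 59.9 and 97.2 CPM in TSLPR- libraries (1.59-fold, adjusted p = 0.0062). Both genes were higher in TSLPR+ in 8 of 8 mice. The small subunit Rrm2, the GINS subunit Gins2 and the loader Cdc6 also passed. Pcna, the second loader Cdt1, Cdc45, Gins1 and the methylation reader Uhrf1 did not pass. Cdt1 was close in both, at 44.1 ± 16.99 CPM in TSLPR+ and 40.8 ± 14.0 CPM in TSLPR- libraries.

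**Figure D2:**
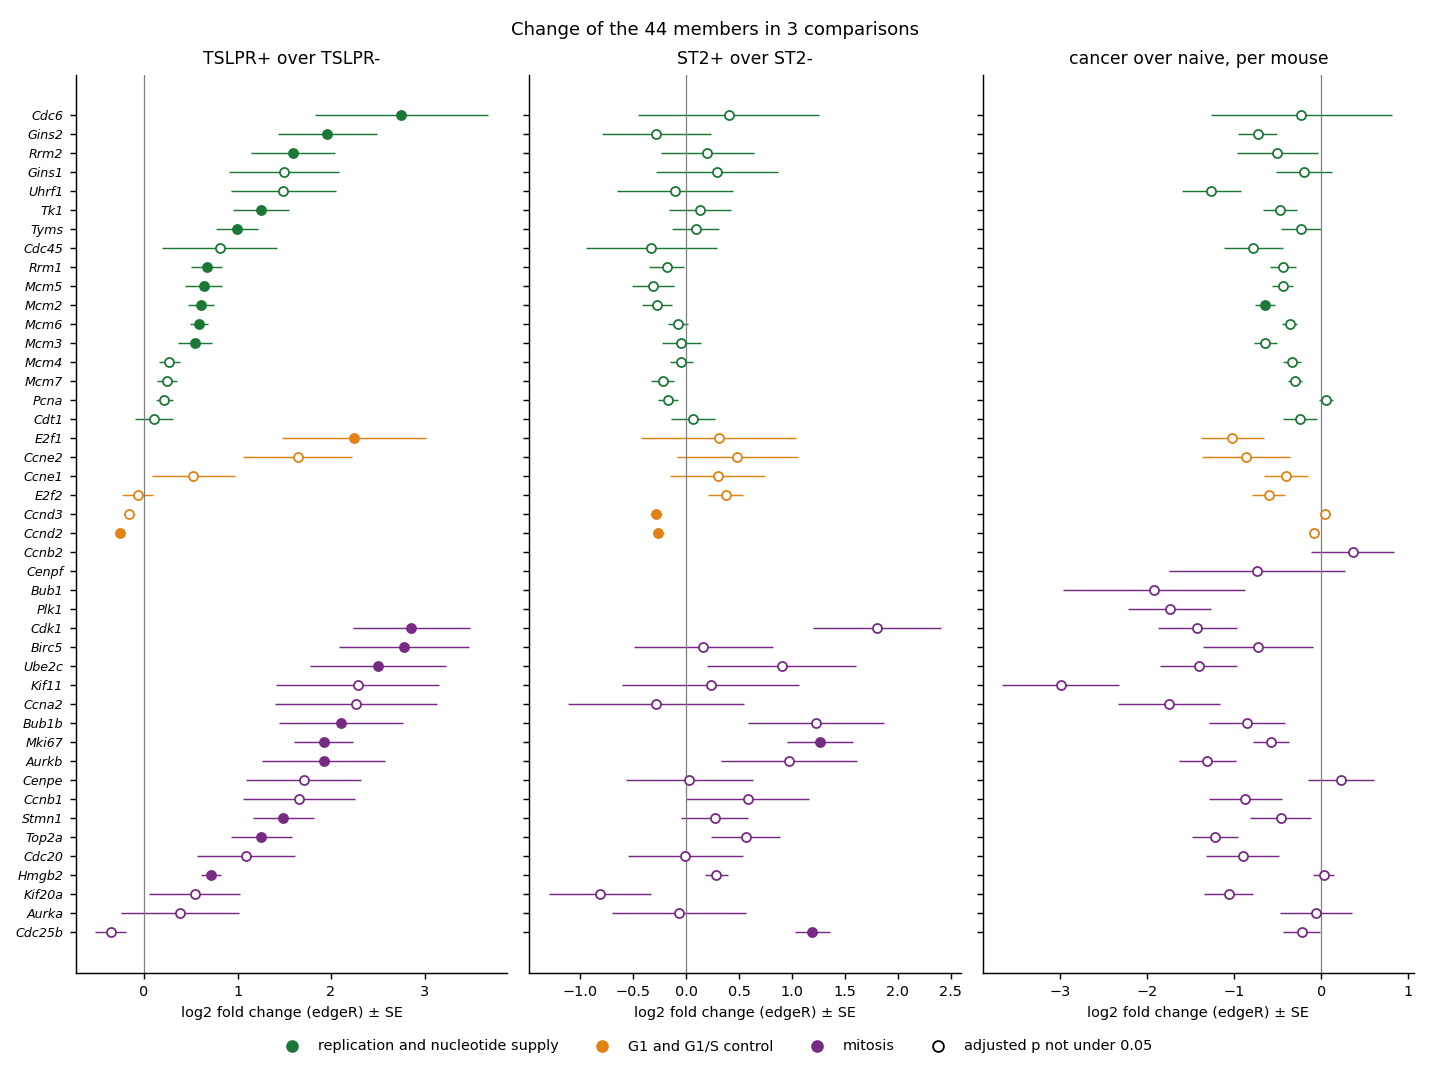
Fitted log2 fold change (x axis, bars are SE) of the 44 members (rows, coloured by role) for TSLPR+ over TSLPR-, ST2+ over ST2- and cancer over naive per mouse; filled points passed an adjusted p of 0.05 and the x axes differ between panels. Ccnb2, Cenpf, Bub1 and Plk1, each at 0 in a whole group, are left out of the first 2 panels, where filled points number 21 for TSLPR and 4 for ST2; the cancer panel has 1.

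Among mitosis genes, Hmgb2 (chromosome 8, 57511907 to 57515999) had the smallest p. Its lowest, median and highest levels were 103, 165 and 235 CPM in TSLPR+ and 66.0, 88.5 and 173 CPM in TSLPR- libraries, and TSLPR+ was higher in 8 of 8 mice (1.64-fold, log2 0.71 ± 0.11 SE, edgeR adjusted p = 2.437e-05). Mki67 (chromosome 7, 135689784 to 135716361), which encodes the proliferation marker Ki-67, had 15.9, 44.1 and 80.7 CPM in TSLPR+ and 0, 9.91 and 64.5 CPM in TSLPR- libraries (3.79-fold, log2 1.92 ± 0.31 SE, adjusted p = 7.641e-05). The Mki67 maximum of TSLPR- cells came from the ST2+ gate of cancer mouse 8, and in its ST2- gate the same mouse had 0.933 CPM.

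Cdk1, the kinase that drives mitosis, had 0.734, 12.4 and 67.3 CPM in TSLPR+ and 0, 2.38 and 26.3 CPM in TSLPR- libraries (7.26-fold, edgeR adjusted p = 0.00201). Its partner Ccnb2, cyclin B2 (chromosome 9, 70407692 to 70421547), had 0, 40.7 and 89.0 CPM in TSLPR+ and 0, 1.47 and 30.7 CPM in TSLPR- libraries (adjusted p = 9.677e-05). All 4 naive TSLPR-ST2+ libraries had no Ccnb2 count, so no fold is given. In TSLPR+ST2- cells Ccnb2 was 18.6, 36.1, 70.7 and 40.7 CPM in cancer mice 5 to 8 and 40.7, 51.9, 45.3 and 71.7 CPM in naive mice 1 to 4. In TSLPR-ST2- cells it was 2.64, 2.06, 4.11 and 0.311 CPM in cancer mice and 0.877, 10.6, 2.90 and 6.70 CPM in naive mice, so the gates did not overlap in either status.

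Stmn1, a microtubule regulator, had 13.6, 49.7 and 81.0 CPM in TSLPR+ and 4.04, 11.6 and 53.5 CPM in TSLPR- libraries (2.81-fold, edgeR adjusted p = 0.00201). Cenpf, a kinetochore protein, had 0, 6.38 and 15.7 CPM in TSLPR+ and 0, 0 and 4.95 CPM in TSLPR- libraries (adjusted p = 0.002302), with a count in 12 of 16 TSLPR+ and 5 of 16 TSLPR- libraries. Birc5 (survivin), Top2a (the topoisomerase that untangles chromosomes), Ube2c (an enzyme of the anaphase-promoting complex), the checkpoint genes Bub1 and Bub1b and the kinases Plk1 and Aurkb rose too. The other 8 mitosis members, Ccna2, Ccnb1, Cdc20, Cdc25b, Aurka, Kif11, Kif20a and Cenpe, did not pass. Of the 21 members, Cdc25b had the only negative fitted change. It averaged 88.8 ± 47.8 CPM in TSLPR+ and 115 ± 68.6 CPM in TSLPR- libraries.

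In the G1 group, Ccnd2 (chromosome 6, 127125162 to 127152193) went the other way. It averaged 1026 ± 109 CPM in TSLPR+ and 1235 ± 209 CPM in TSLPR- libraries, lower in TSLPR+ in 8 of 8 mice (1.195-fold, log2 -0.26 ± 0.05 SE, edgeR adjusted p = 0.0006627). E2f1, a transcription factor that activates replication genes, averaged 13.7 ± 6.98 CPM in TSLPR+ and 3.42 ± 4.17 CPM in TSLPR- libraries, with a count in 15 of 16 and 8 of 16 libraries (adjusted p = 0.04946). Ccnd3, cyclin D3, was 300 ± 43.8 CPM in TSLPR+ and 334 ± 50.1 CPM in TSLPR- libraries and did not pass (adjusted p = 0.06435). The E-type cyclins Ccne1 and Ccne2 and the factor E2f2 did not pass. The fitted changes of both D-type cyclins were thus negative, while those of all 17 replication genes were positive.

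**Figure D3:**
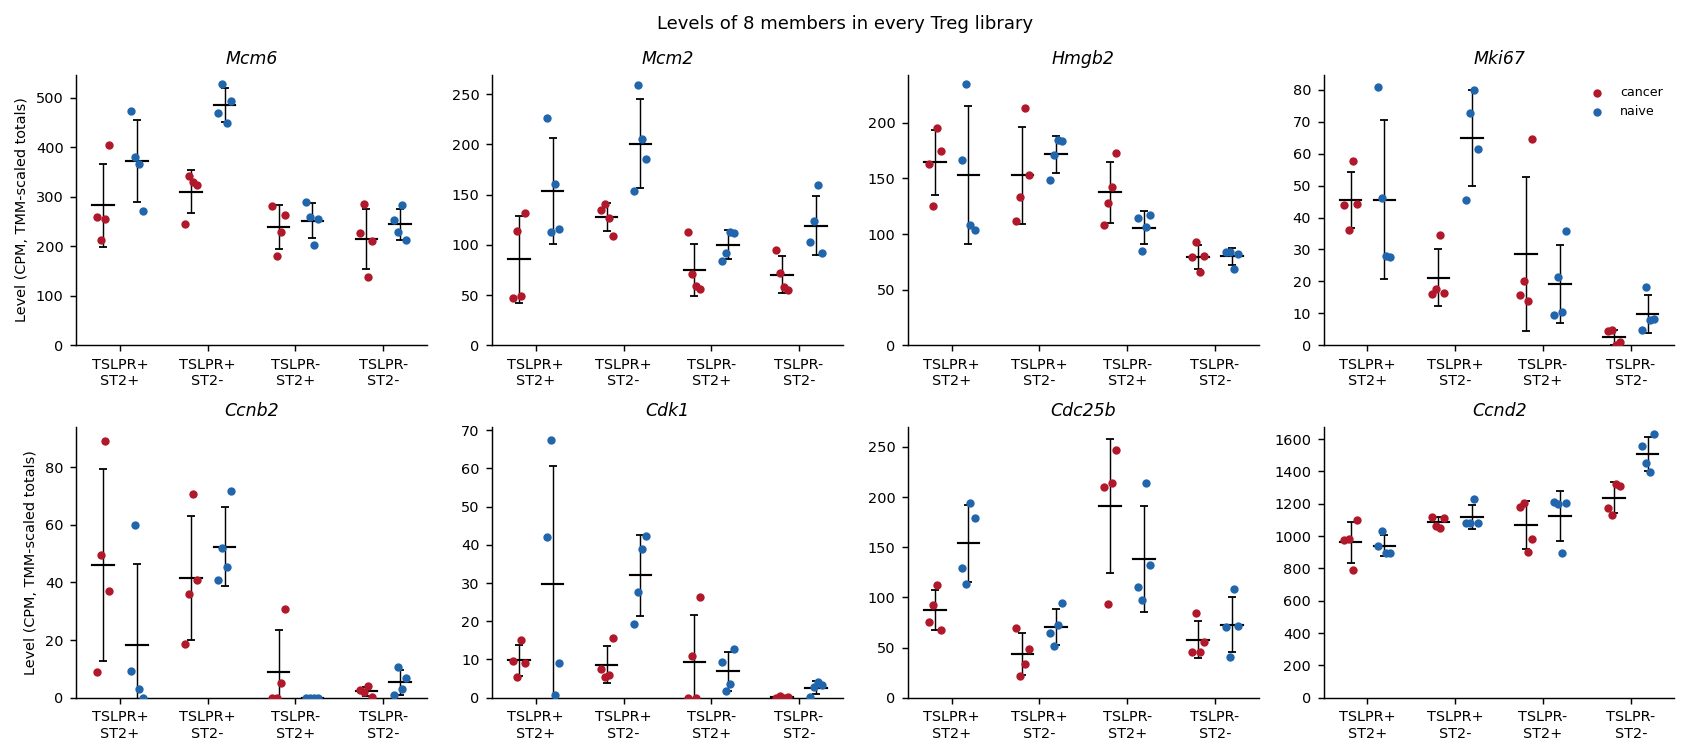
Level of 8 members (CPM, y axis) in every Treg library by gate (x axis), cancer mice in red left of naive mice in blue; lines are means and bars are SD (n = 4). Ccnb2 is at most 10.6 CPM in TSLPR-ST2- cells and above 0 in 2 of 8 TSLPR-ST2+ libraries (highest 30.7 CPM), Cdc25b is higher in both ST2+ gates, and Ccnd2 is highest in naive TSLPR-ST2- cells (mean 1509 CPM).

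The TSLPR difference was read in each ST2 gate from the sums of the same mice. In the ST2- gates, summed mitosis level was 646 ± 284 CPM in TSLPR+ and 224 ± 51.1 CPM in TSLPR- cells (n = 8 each), higher in TSLPR+ in 8 of 8 mice, and replication was 1745 ± 493 CPM in TSLPR+ and 1049 ± 148 CPM in TSLPR- cells, also in 8 of 8. In the ST2+ gates, mitosis was 631 ± 284 CPM in TSLPR+ and 434 ± 147 CPM in TSLPR- cells, higher in TSLPR+ in 6 of 8 mice, with mice 5 and 8 the other way. Replication there was 1414 ± 486 CPM in TSLPR+ and 1062 ± 150.2 CPM in TSLPR- cells, also higher in TSLPR+ in 6 of 8 mice, with mice 4 and 5 the other way. The interaction of ST2 with TSLPR was tested for each gene, and no member passed (0 of 14861 genes did by edgeR, with 1094 genes and 5 members at an unadjusted p under 0.05, and 119 genes by DESeq2). Mki67 had the smallest p among mitosis members (log2 -1.92, adjusted p = 0.3766). Its levels were 45.5 ± 17.3 CPM in TSLPR+ and 23.9 ± 18.4 CPM in TSLPR- cells of the ST2+ gates, and 43.0 ± 26.1 CPM in TSLPR+ and 6.19 ± 5.70 CPM in TSLPR- cells of the ST2- gates.

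**Figure D4:**
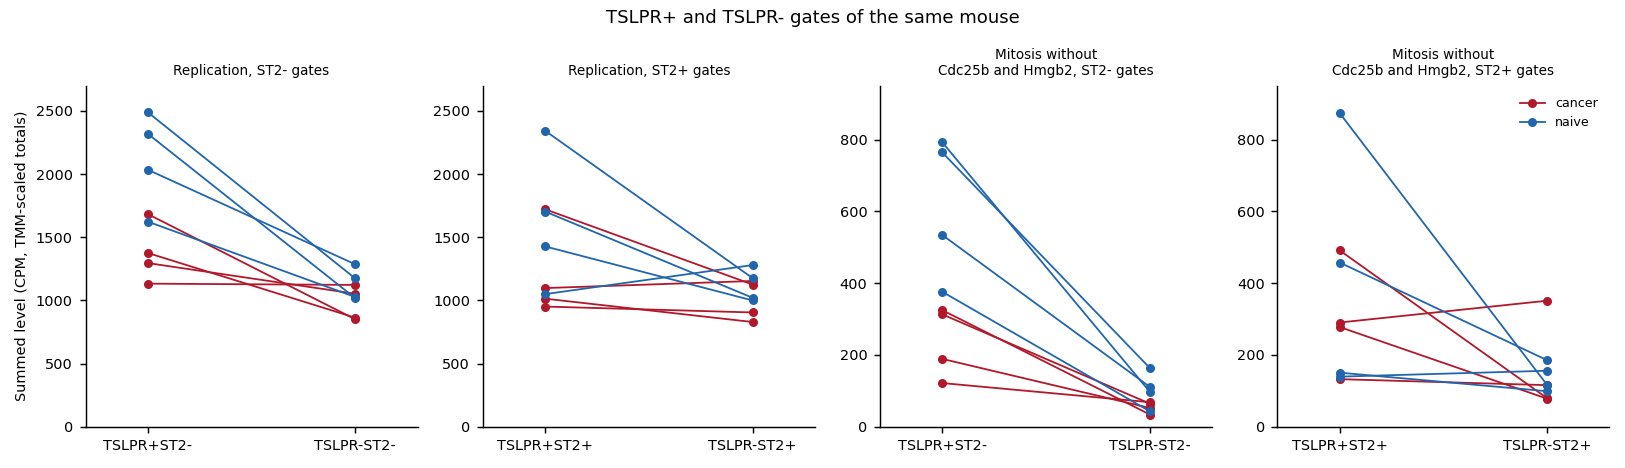
Summed replication level and summed mitosis level without Cdc25b and Hmgb2 (CPM, y axes) in the TSLPR+ gate and the TSLPR- gate (x axis) of the same mouse, joined by lines, for ST2- and ST2+ gates; cancer mice are red and naive mice blue. All 8 lines for each sum fall to the right in the ST2- gates, whereas lines go both ways in the ST2+ gates.

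Markers of other cell types and detection moved with TSLPR as well. Summed B and plasma cell markers (6 of 6 detected) ran from 41.8 to 819 CPM in TSLPR+ and from 31.4 to 126 CPM in TSLPR- libraries, macrophage and dendritic markers (9 of 9) from 310 to 2595 CPM in TSLPR+ and from 124 to 2743 CPM in TSLPR- libraries, and epithelial markers (13 of 13) from 60.0 to 15620 CPM in TSLPR+ and from 31.4 to 170 CPM in TSLPR- libraries. CD8, NK and gamma-delta T cell markers were at 22.8 to 246 CPM in TSLPR+ and 30.2 to 126 CPM in TSLPR- libraries, and neutrophil, mast and stromal markers at 52.2 to 173 CPM in TSLPR+ and 96.9 to 243 CPM in TSLPR- libraries. Higher in TSLPR+ by edgeR were 5 of 6 B and plasma, 8 of 9 macrophage and dendritic and 5 of 11 epithelial markers tested. Median log2 changes of these lists were 3.048, 1.735 and 2.543. Of 5 CD8, NK and gamma-delta T cell markers tested 0 passed, and of 3 neutrophil, mast and stromal markers 1 passed, lower. That marker, Pecam1, made up most of the neutrophil, mast and stromal sum. It averaged 181.3 of 184.1 CPM in cancer TSLPR-ST2- and 76.74 of 81.11 CPM in cancer TSLPR+ST2+ cells. Genes detected numbered 15402 to 16845 in TSLPR+ and 14632 to 16149 in TSLPR- libraries. The part of these markers and of detection in the result was not tested. With all libraries thinned to equal totals 27 members passed, and without the epithelial-rich library of cancer mouse 7, an alternative added after the data were seen, 23 did. Without the ST2+ libraries of mouse 5 there were 25. Without naive mouse 2, whose TSLPR+ST2+ library had the highest mitosis sum, there were 14. Over all genes, 1489 of 15341 passed in that fit, against 1996 of 14861 with every mouse. Across 16 alternative settings, 14 members kept their call in every one (Mcm2, Mcm6, Gins2, Tyms, Rrm1, Tk1, Mki67, Cdk1, Ccnb2, Birc5, Cenpf, Stmn1, Hmgb2 and Ccnd2). The other 11 lost it in 3 (Top2a) to 11 (Aurkb) of the 16 settings, Cdc6 and E2f1 in 10 and Mcm3 and Bub1b in 8.

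Cell cycle genes outside the list were counted in the same comparison. Of 60 other replication genes, 13 were higher and 3 lower in TSLPR+ cells. Gmnn, which encodes the Cdt1 inhibitor geminin, was 40.0 ± 11.6 CPM in TSLPR+ and 19.9 ± 8.54 CPM in TSLPR- libraries (adjusted p = 0.0001944), and the histone chaperone Asf1b, the checkpoint adaptor Clspn and DNA ligase Lig1 were next by p. Of 65 other mitosis genes tested, 18 were higher and 1 lower. The Cdk1-binding proteins Cks2 (2.21-fold) and Cks1b (2.99-fold) and the chromosomal passenger subunit Cdca8 (4.23-fold) were higher, and the condensin subunit Smc4 was lower, at 715 ± 103 CPM in TSLPR+ and 885 ± 92.1 CPM in TSLPR- libraries (adjusted p = 6.123e-05).

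Among 24 other kinases, cyclins and E2F genes tested, 3 were higher in TSLPR+ cells (Cdk6, Wee1 and E2f8) and 1 was lower. That gene was Myc, a growth factor-induced regulator of G1, at 231 ± 73.0 CPM in TSLPR+ and 372 ± 94.6 CPM in TSLPR- libraries, lower in TSLPR+ in 8 of 8 mice (1.63-fold, edgeR adjusted p = 1.149e-06). Of 23 inhibitors tested, 5 were higher and 4 lower. Cdkn2c, which encodes the Cdk4 and Cdk6 inhibitor p18, was 29.6 ± 11.4 CPM in TSLPR+ and 12.9 ± 6.50 CPM in TSLPR- libraries (adjusted p = 0.0002346), whereas its relative Cdkn2d was lower, at 145 ± 40.4 CPM in TSLPR+ and 214 ± 41.4 CPM in TSLPR- libraries (adjusted p = 0.0007683). Gadd45b and the phosphatase gene Cdkn3 were higher.

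The difference between ST2+ and ST2- Treg involved fewer members. In all, 4 of 44 passed, with 2 higher and 2 lower, against 6.04% of all genes (3.7% higher and 2.33% lower). The median log2 change of the members was 0.11, against -0.005 for all genes tested, with 0 of 17 replication genes called. Cdc25b (chromosome 2, 131186949 to 131198497) had 67.5, 121 and 246 CPM (lowest, median, highest) in ST2+ and 22.0, 60.1 and 108 CPM in ST2- libraries. In 11 of 16 ST2+ libraries it lay above every ST2- library, and in 8 of 8 mice it was higher in ST2+ (2.29-fold, log2 1.19 ± 0.17 SE, edgeR adjusted p = 2.249e-05).

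Both D-type cyclins were lower in ST2+ cells. Ccnd2 averaged 1023 ± 140 CPM in ST2+ and 1237 ± 187 CPM in ST2- libraries, lower in ST2+ in 8 of 8 mice (1.201-fold, edgeR adjusted p = 0.001179). Ccnd3 averaged 287 ± 46.4 CPM in ST2+ and 348 ± 30.5 CPM in ST2- libraries, lower in ST2+ in 7 of 8 mice (1.22-fold, adjusted p = 0.002214). Mki67 was higher, at 34.7 ± 20.6 CPM in ST2+ and 24.6 ± 26.3 CPM in ST2- libraries and in 5 of 8 mice (2.40-fold, adjusted p = 0.0116), and did not pass without naive mouse 1, naive mouse 4 or cancer mouse 8. In the replication group the smallest p was that of Mcm7 (log2 -0.22, adjusted p = 0.2503), followed by Mcm2 (log2 -0.28, adjusted p = 0.2779). Summed replication was 1238 ± 392 CPM in ST2+ and 1397 ± 502 CPM in ST2- libraries. Macrophage and dendritic markers were also higher in ST2+ libraries, at 458 to 2743 CPM, against 124 to 1398 CPM in ST2- libraries. Of 11 epithelial markers tested, 2 passed, Epcam and Car1, and all 11 had positive changes, with summed levels of 35.1 to 15620 CPM in ST2+ and 31.4 to 156 CPM in ST2- libraries. The part of these markers in the ST2 differences was not tested. Without the epithelial-rich library of cancer mouse 7 the same 4 members passed, and Cdc25b had a log2 change of 1.16 (adjusted p = 4.99e-05). Without the ST2+ libraries of mouse 5 the count was 5.

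Outside the list, ST2+ cells had more Rbl2, which encodes the pocket protein p130 (166 ± 58.1 CPM in ST2+ and 96.6 ± 30.2 CPM in ST2- libraries, edgeR adjusted p = 0.001317), more Ccng1, cyclin G1 (108 to 278 CPM in ST2+ and 109 to 163 CPM in ST2-, adjusted p = 0.001794), and more Pttg1, securin (140 ± 28.8 CPM in ST2+ and 112 ± 17.2 CPM in ST2-, adjusted p = 0.009478). All 3 were higher in ST2+ in 8 of 8 mice. Myc was lower (257 ± 105 CPM in ST2+ and 346 ± 97.7 CPM in ST2-, adjusted p = 0.0006671), as was Smc4. Counts were 1 higher and 2 lower of 60 other replication genes (Rpa1 higher, Nme1 and Pold2 lower), 1 and 1 of 65 mitosis genes, 0 and 1 of 24 kinases, cyclins and E2F genes, and 2 and 0 of 23 inhibitors.

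TSLPR+ST2- cells were also set directly against TSLPR-ST2+ cells. Of the members, 4 were higher and 1 lower in TSLPR+ST2- cells, against 2.67% of all genes (1.4% higher and 1.27% lower), with a median log2 change of 1.07 for the members and 0.018 for all genes. Cdc25b was lower, with 69.6, 22.0, 33.9 and 48.8 CPM in TSLPR+ST2- cells of cancer mice 5 to 8 and 64.3, 51.9, 72.9 and 94.3 CPM in those of naive mice 1 to 4. In TSLPR-ST2+ cells it was 210, 93.4, 214 and 246 CPM in the same cancer mice and 110, 97.1, 214 and 132 CPM in the same naive mice (2.93-fold lower in TSLPR+ST2- cells, edgeR adjusted p = 0.0002188). It was lower in TSLPR+ST2- cells in 8 of 8 mice.

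The 4 higher members were Ccnb2, Mcm6, Mcm2 and Rrm1. Mcm6 averaged 398 ± 100 CPM in TSLPR+ST2- and 246 ± 38.1 CPM in TSLPR-ST2+ cells (1.58-fold, edgeR adjusted p = 0.005172), and Mcm2 164 ± 49.4 CPM in TSLPR+ST2- and 87.5 ± 23.9 CPM in TSLPR-ST2+ cells (1.85-fold, adjusted p = 0.01164). Rrm1 averaged 119 ± 34.0 CPM in TSLPR+ST2- and 66.2 ± 15.7 CPM in TSLPR-ST2+ cells (1.80-fold, adjusted p = 0.04157). Ccnb2 had a count in 8 of 8 TSLPR+ST2- and 2 of 8 TSLPR-ST2+ libraries (adjusted p = 0.00306). No G1 member passed, the smallest p being that of E2f2 (log2 -0.44, adjusted p = 0.342), then E2f1 (log2 1.94, adjusted p = 0.3697). Rrm1 lost its call in 8 of 16 alternative settings, and the count was 3 without naive mouse 2, without which Mcm2 did not pass either. With the mouse as a random block in limma-voom 9 members passed, 8 higher and 1 lower. Macrophage and dendritic markers here were 310 to 1398 CPM in TSLPR+ST2- and 458 to 2743 CPM in TSLPR-ST2+ cells. Of the other lists, 5 replication genes were higher and 1 lower, 3 mitosis genes higher and 1 lower, and 1 inhibitor higher and 3 lower, with Tob1 (1.97-fold lower, adjusted p = 0.002005) first among inhibitors by p.

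Cancer and naive mice were compared on the sum of each mouse's 4 gates. Only Mcm2 passed, and it was lower, at 103, 98.3, 73.6 and 85.9 CPM in cancer mice 5 to 8 and 141, 142, 159 and 124 CPM in naive mice 1 to 4 (1.57-fold, log2 -0.65 ± 0.12 SE, edgeR adjusted p = 0.03679 over 15338 genes). The groups do not overlap. Of all genes tested 1.21% passed, 0.287% higher and 0.926% lower. The fitted change was negative for 39 of 44 members, with a median log2 change of -0.59, against 0.01 for all genes. An unadjusted p under 0.05 was found for 22 members and for 2586 of the 15338 genes. Leaving out any single mouse ended the Mcm2 call, with log2 changes between -0.72 and -0.56, and leaving out naive mouse 4 gave a different single member. By DESeq2 17 members were lower and none higher. Of 30639 genes with a p-value, whether or not DESeq2 gave an adjusted one, 786 were lower and 543 higher.

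The next members by p did not pass. Mcm3 averaged 71.0 ± 6.18 CPM in cancer and 111 ± 18.99 CPM in naive mice (SD, n = 4 each, adjusted p = 0.05631). Top2a averaged 16.6 ± 5.97 CPM in cancer and 38.7 ± 7.85 CPM in naive mice (adjusted p = 0.06776), and the spindle motor gene Kif11 had 1.62, 0.637, 0.334 and 3.14 CPM in cancer mice 5 to 8 and 7.38, 20.2, 8.07 and 10.2 CPM in naive mice 1 to 4 (adjusted p = 0.07069). E2f2 (log2 -0.61, adjusted p = 0.1487) and E2f1 (log2 -1.02, adjusted p = 0.1918) were first in the G1 group. All 4 cancer mice lay below all 4 naive mice for 8 of 17 replication genes, 6 of 21 mitosis genes and 1 of 6 G1 genes, and in no member did all 4 lie above. Over all genes tested, 5.82% had the cancer mice wholly below and 5.52% wholly above. The 8 replication genes were Mcm2 to Mcm7, Gins2 and Uhrf1.

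**Figure D5:**
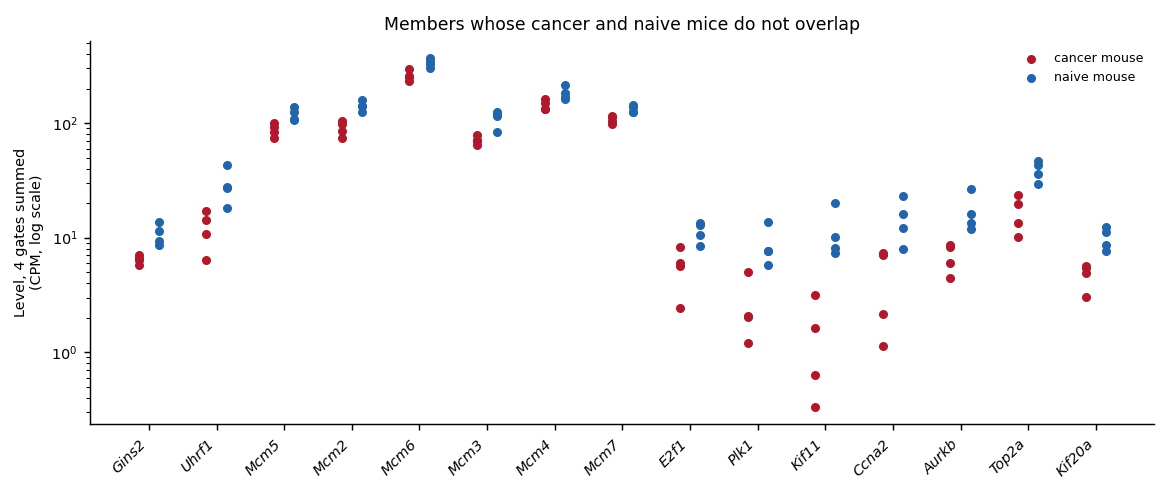
Level per mouse with its 4 gates summed (CPM, log scale, y axis) of the 15 members (x axis) whose 4 cancer mice (red, left) and 4 naive mice (blue, right) do not overlap. In each of the 15 the cancer mice are lower; only Mcm2 passed the adjusted test.

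Summed replication level per mouse was 1130, 1052, 1085 and 1258 CPM in cancer mice 5 to 8 and 1536, 1583, 1428 and 1364 CPM in naive mice 1 to 4, without overlap. Summed mitosis level was 325, 332, 462 and 508 CPM in cancer mice and 484, 666, 539 and 524 CPM in naive mice, which overlap. Without Cdc25b and Hmgb2 it was 108, 142, 210 and 252 CPM in cancer mice and 262, 436, 266 and 277 CPM in naive mice, which do not overlap. Pcna, Hmgb2 and Ccnd3 were close in both, at 134 ± 9.72, 131 ± 19.1 and 322 ± 9.90 CPM in cancer mice and 129 ± 8.07, 128 ± 14.7 and 313 ± 20.0 CPM in naive mice. The mitochondrial share of counts also differed, at 0.958 to 3.23% in cancer and 0.616 to 1.28% in naive libraries (medians 1.475% and 1.114%). With its log2 as a covariate no member passed. The share moves with status over the 8 mice, so that fit cannot tell them apart. Macrophage and dendritic markers had 2 of 9 lower per mouse: Cd68 at 17.7 ± 3.74 CPM in cancer and 42.2 ± 8.12 CPM in naive mice (edgeR adjusted p = 0.02781), and C1qb at 44.9 ± 8.88 CPM in cancer and 98.3 ± 25.5 CPM in naive mice (adjusted p = 0.03457). The other 7 did not pass. Of the 9 changes, 6 were negative and 3 positive, those of Cst3, Adgre1 and Itgax. The summed level of the 9 markers ran from 175 to 2162 CPM in cancer and from 124 to 2743 CPM in naive libraries. Of 11 epithelial markers tested none passed and 10 had positive changes, with summed levels of 51.2 to 15620 CPM in cancer and 31.4 to 343 CPM in naive libraries. The part of these markers in the result was not tested.

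Within gates, no member passed between cancer and naive mice (edgeR). At an unadjusted p under 0.05 there were 6 members in TSLPR+ST2+, 11 in TSLPR+ST2-, 2 in TSLPR-ST2+ and 7 in TSLPR-ST2- cells. Of all 14861 genes tested, 3001, 1100, 1568 and 1101 were under it in the same order of gates. DESeq2 called 2, 1, 1 and 1 members in that order, and 1310, 96, 240 and 142 of 30794 genes with a p-value, adjusted or not. The shares of all genes that passed by edgeR were 4.16%, 0.0471%, 0.202% and 0.209% in that order. The members' median log2 changes were -0.42, -0.84, -0.08 and -0.56. In TSLPR+ST2- cells, Mcm6 was 246, 343, 329 and 324 CPM in cancer mice 5 to 8 and 470, 528, 449 and 494 CPM in naive mice 1 to 4 (log2 -0.64 ± 0.19 SE, adjusted p = 0.3639), without overlap. Mki67 in the same gate was 15.9, 17.7, 34.4 and 16.3 CPM in cancer mice and 45.4, 72.6, 80.0 and 61.4 CPM in naive mice (adjusted p = 0.5576), also without overlap. In TSLPR-ST2+ cells Mki67 overlapped, at 15.8, 20.2, 14.0 and 64.5 CPM in cancer mice and 9.45, 21.5, 10.4 and 35.7 CPM in naive mice.

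Other members with the smallest p in each gate are given as values. In TSLPR-ST2- cells Mcm2 had a log2 change of -0.77 (adjusted p = 0.561), and Plk1 (adjusted p = 0.4437) had the smallest p of the mitosis genes. In TSLPR-ST2+ cells Ccnb2 and Cenpf, both at 0 in every naive mouse, had adjusted p-values of 0.112 and 0.3666, and Ccnd3 had a log2 change of 0.22 (adjusted p = 0.5055). In TSLPR+ST2+ cells these were Rrm1 (log2 -1.01, adjusted p = 0.07667), Mcm2 (log2 -0.84, adjusted p = 0.0853), E2f2 (log2 -0.97, adjusted p = 0.08701), Cdc25b (log2 -0.81, adjusted p = 0.1526) and Top2a (log2 -1.50, adjusted p = 0.1883). Ccnd2 in TSLPR-ST2- cells was 1174, 1133, 1324 and 1311 CPM in cancer mice 5 to 8 and 1554, 1449, 1399 and 1633 CPM in naive mice 1 to 4 (log2 -0.29 ± 0.10 SE, adjusted p = 0.4846), which do not overlap. In the same TSLPR-ST2- cells E2f2 had a log2 change of -0.96 (adjusted p = 0.4825) and Mki67 one of -1.94 (adjusted p = 0.4723). Mcm4 was first by p in TSLPR+ST2- cells (log2 -0.84, adjusted p = 0.2588), and Kif11 there had an adjusted p of 0.6056 and E2f2 one of 0.9672.

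Whether status changed the receptor differences was tested by interaction. No member and no gene passed for status with TSLPR (1178 genes and 4 members at an unadjusted p under 0.05, 57 genes by DESeq2) or for status with ST2 (926 genes and 4 members at an unadjusted p under 0.05, 50 genes by DESeq2, Ccnb2 among them). Cdc25b had the smallest p of the members for status with TSLPR (log2 -0.82, adjusted p = 0.5465). In TSLPR+ST2+ cells it was 75.7, 92.1, 113 and 67.5 CPM in cancer mice 5 to 8 and 130, 113, 194 and 179 CPM in naive mice 1 to 4, and in TSLPR-ST2+ cells it averaged 191 ± 67.1 CPM in cancer and 138 ± 52.6 CPM in naive mice.

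Of the genes outside the list, Tob1, an antiproliferative gene of the BTG family, was lower in cancer mice, with 31.0, 29.0, 33.7 and 29.7 CPM in mice 5 to 8 and 53.8, 57.0, 60.0 and 62.7 CPM in naive mice 1 to 4 (1.89-fold, edgeR adjusted p = 0.007369). It was also lower within the TSLPR-ST2+ gate, at 36.8 ± 13.7 CPM in cancer and 95.2 ± 6.53 CPM in naive mice (adjusted p = 0.016), and within the TSLPR+ST2+ gate, at 24.8 ± 7.32 CPM in cancer and 47.6 ± 9.57 CPM in naive mice (adjusted p = 0.03802). It was 30.3 ± 7.01 CPM in cancer and 55.3 ± 6.77 CPM in naive TSLPR-ST2- cells (adjusted p = 0.296). In TSLPR+ST2- cells it was 29.4 ± 6.62 CPM in cancer and 30.7 ± 8.02 CPM in naive mice. Kif18b, a mitotic kinesin, was lower per mouse, at 0 to 0.153 CPM in cancer and 0.562 to 6.50 CPM in naive mice (adjusted p = 0.03929). Myc was lower and Pttg1 higher in cancer TSLPR+ST2+ cells, Myc at 146 ± 19.9 CPM in cancer and 225 ± 43.0 CPM in naive mice (adjusted p = 0.0407). The cancer mouse 7 library of that gate is the epithelial-rich one.

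Members also varied together among libraries of the same group. Over the 32 Treg libraries, after each group mean was removed, the median correlation between members was 0.333 for pairs of mitosis genes, 0.299 for pairs of replication genes, 0.189 for a mitosis gene with a replication gene and 0.099 for a mitosis gene with a G1 gene, against 0.001 for all pairs of genes tested. These pairs share libraries and depth, and the values are a description. Naive TSLPR+ST2+ cells show the spread: summed mitosis level was 754, 1222, 453 and 422 CPM in mice 1 to 4, and summed replication level 2344, 1704, 1428 and 1050 CPM. The mouse with the highest mitosis sum was thus not the mouse with the highest replication sum.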

How the data were processed

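Treg libraries (SMART-Seq v4, 58-base single reads) were analysed from the gene counts the authors deposited, raw counts for 53465 Ensembl genes on GRCm38, of which 53274 have a symbol. Among the tools in the submitters' processing notes are SAMtools 1.2, FastQC 0.11.3, Picard 1.134 and HTSeq 0.4.1. Strand setting, aligner and annotation release are not given in those sources, so genes that overlap or have near-identical copies are uncertain. Gene positions and exons come from GENCODE M21 and promoters from RefSeq (GRCm38.p6).

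edgeR 4.0.16 (R 4.3.3) quasi-likelihood F-tests used TMM scaling, filterByExpr (minimum count 10, total 15), a robust fit and Benjamini-Hochberg adjustment (0.05) over all genes tested. A group-means model of the 32 Treg libraries tested 14861 genes, and the summed counts of each mouse's 4 gates tested 15338; adjusted p-values are from edgeR unless another tool is named. Fitted folds average groups on the log2 scale and can differ from ratios of printed means. SE is the log2 change divided by the square root of F. Counts of 200 cells limit low genes. Scripts were tested on simulated data.

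Gates of a mouse are paired by animal, per the labels. Deviations of libraries from group means correlated by 0.00993 on average over 48 same-mouse pairs and by -0.00331 over 144 pairs that join 2 mice within a status. Removing group means ties the second value to the first, so it is not a separate baseline. The mouse block is an alternative, beside RLE scaling, DESeq2 1.42.0, limma 3.58.1 voom, no filter, thinning, a mitochondrial covariate, single-gate fits and libraries left out.

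Members and lists were chosen with earlier results of these data known. The text names each member past the threshold where there are 12 or fewer, else the 12 with the smallest p, the 2 smallest of a role group with none, and up to 4 of each other list; remaining members are named to account for all 44 and, like gene examples within gates and for status effects, were chosen after values were seen.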

Additional observations from a re-analysis of the deposited data

Results flagged for a closer look

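Summed levels of the 3 role groups were screened in each of the 8 groups of 4 libraries, 24 sets in all, for a library whose gap to its nearest neighbour, over the group's range, passes Dixon's critical value. Chance flags about 1 in 20 such sets. Among G1 and G1/S control genes, naive TSLPR+ST2- mouse 3 had a summed level of 1645 CPM, above the 1489 to 1505 CPM of the other 3 naive mice in that gate, and its Ccnd2 was 1229 CPM against 1078 to 1083 CPM in the others. Among mitosis genes, naive TSLPR-ST2+ mouse 2 had a summed level of 297.9 CPM, below the 405 to 420 CPM of the others in that gate.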

How the results depend on the processing

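No member called by edgeR changed direction under any alternative run. DESeq2 called 17 members between cancer and naive mice in place of 1, 9 between the single-positive gates in place of 5, and, in place of 0, 2 in TSLPR+ST2+, 1 in TSLPR+ST2-, 1 in TSLPR-ST2+ and 1 in TSLPR-ST2- cells and 1 for the interaction of status with ST2. It also called more genes in all. These were 1329 in place of 186 between cancer and naive mice, and 873 in place of 397 between the single-positive gates. Leaving out 1 mouse at a time gave 14 to 23 members for TSLPR, 3 to 5 for ST2, 3 to 5 for the single-positive gates, 0 to 2 for cancer against naive in TSLPR+ST2+ cells (2 without cancer mouse 7 or 8) and 0 to 1 per mouse. Of the 15225 to 15359 genes tested in the group fits of these runs, 1303 to 1939 passed for TSLPR and 459 to 783 for ST2. For the single-positive gates 207 to 527 genes passed, and for cancer against naive in TSLPR+ST2+ cells 171 to 749. The mean of the 4 gate contrasts gave 6 members for cancer against naive, and the mitochondrial covariate, which moves with status, gave 0. Without the TSLPR+ST2+ library of cancer mouse 7, chosen after seeing the data, 2 members passed between cancer and naive TSLPR+ST2+ cells. The cause of these changes was not tested. Thinning, RLE scaling and the removal of mouse 5's ST2+ libraries left each count of members within 1.5 times its value; the per-mouse fit without those libraries was not run.

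With the mouse as a fixed replicate block in edgeR, 23 members passed for TSLPR, 4 for ST2 and 4 for the single-positive gates; with the mouse as a random block in limma-voom the counts were 23, 5 and 9. The block moved no other count of members by more than 1.5 times. Low counts limit the mitosis genes: Bub1 was at 0 in 18 of 32 libraries.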

Other observations

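A single library of naive Foxp3- CD44low T cells stands outside the comparisons, with no replicate, and is given on plain library totals. Its summed mitosis level was 180.9 CPM, and 2 of 32 Treg libraries were lower (Treg range 169.2 to 1207 CPM). Its summed replication level was 947.2 CPM, and 5 of 32 Treg libraries were lower. Mki67 had no count in it, Mcm6 was 110.9 CPM (Treg 140.7 to 525.6 CPM), and 11 of 21 mitosis members were at 0. Ccnd3 went the other way, at 475.8 CPM, above every Treg library (233.2 to 409.5 CPM).

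The ratio of summed replication to summed mitosis level was 2.68 ± 0.759 in TSLPR+ and 3.70 ± 1.32 in TSLPR- libraries (SD, n = 16 each), lower in TSLPR+ in 8 of 8 mice. By ST2 gate, it was 2.92 ± 0.664 in TSLPR+ and 4.80 ± 0.748 in TSLPR- cells of the ST2- gates, and 2.45 ± 0.816 in TSLPR+ and 2.602 ± 0.623 in TSLPR- cells of the ST2+ gates (n = 8 each), where 4 of 8 mice were lower in TSLPR+. Its mitosis sum includes Cdc25b and Hmgb2. In the ST2+ gates that pair averaged 48.03% of the sum in cancer and 50.34% in naive TSLPR+ cells. In TSLPR- cells of those gates it averaged 70.85% in cancer and 63.41% in naive mice. In the ST2- gates the averages were 46.85% and 29.19% in TSLPR+ and 71.27% and 61.08% in TSLPR- cells, cancer first. The ratio was not computed without the pair and was not tested.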
